A study of Rattus norvegicus with 21 samples.

Results

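Transcripts of 2 gelatinases, Mmp2 and Mmp9, and of 3 tissue inhibitors of metalloproteinases, Timp1, Timp2 and Timp3, were followed in the rat urinary bladder after spinal cord injury (SCI). These 5 genes were picked by name out of the 32754 rows of the count table, and all 5 were found under their Ensembl identifiers (Mmp2, ENSRNOG00000016695; Mmp9, ENSRNOG00000017539; Timp1, ENSRNOG00000010208; Timp2, ENSRNOG00000003148; Timp3, ENSRNOG00000004303). The symbols came with the identifiers and were not checked here, because the RefSeq gene table at hand lists no Ensembl identifiers. Mmp2, Timp1, Timp2 and Timp3 had counts high enough for the test and were among the 15225 genes tested, whereas Mmp9 was removed by the filter.

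RNA sequencing was performed on full-thickness bladders from male Sprague Dawley rats, an outbred strain, labelled wild type. SCI rats had a complete transection of the cord at thoracic level T8 at 6 to 7 weeks of age and were studied 2, 8 and 16 weeks later. Uninjured controls were taken at 0, 2, 8 and 16 weeks. No drug treatment was labelled for any group. Each of the 7 groups held 3 libraries, 21 in all, each with a code of its own in its title and taken here as 1 animal, and the SCI arm has no 0-week group.

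The libraries held between 8087726 and 15472537 counts (median 9584812). Levels are given as CPM (counts per 1000000 counts of the library), with library sizes adjusted by edgeR's TMM factors. They were not divided by transcript length, so levels of different genes are not compared. For 3 against 3 animals the smallest two-sided p of an exact permutation test is 0.1, and calls therefore rest on edgeR's quasi-likelihood test fitted across all genes, with a Benjamini-Hochberg adjusted p under 0.05. The labels place all libraries in 1 batch. In such bulk RNA, fewer cells of a type and less RNA per cell cannot be told apart. Markers of bladder cell types, and the other members of the metalloproteinase system, were not analysed here, since only the 5 genes above could be paired with symbols, and the part of cell makeup in the results was not tested.

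Matrix metalloproteinases are zinc-dependent proteases that are secreted or held at the cell surface as inactive proenzymes and cut proteins of the extracellular matrix once activated. MMP2 and MMP9 are known as gelatinases because they cut denatured collagen, and both also act on the type IV collagen of basement membranes. TIMPs are small proteins that bind the active site of these enzymes. TIMP2 also takes part in the activation of pro-MMP2 at the cell surface, TIMP1 can bind pro-MMP9, and TIMP3 stays bound to the matrix and also inhibits ADAM family sheddases. In the bladder wall the balance of these proteins is known as a part of matrix turnover and fibrosis, and transcript levels do not measure enzyme activity.

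The RefSeq promoter table (build GRCr8) held entries for 3 of the 5 genes. Their sequences are shown because Timp1, Timp2 and Timp3 encode related inhibitors whose transcripts are compared throughout. Each line is the 250 bases before the listed transcription start, 5′ to 3′ on the gene's own strand, and capitals mark matches to the motifs searched. Timp1 lies at chrX:3771123-3771372, Timp2 at chr10:104089215-104089464 and Timp3 at chr7:19459559-19459808, all on the minus strand.
Timp1: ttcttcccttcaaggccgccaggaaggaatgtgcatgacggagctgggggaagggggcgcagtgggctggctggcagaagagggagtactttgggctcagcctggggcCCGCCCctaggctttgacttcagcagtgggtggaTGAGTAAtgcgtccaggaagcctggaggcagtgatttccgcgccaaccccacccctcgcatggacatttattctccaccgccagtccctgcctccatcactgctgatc
Timp2: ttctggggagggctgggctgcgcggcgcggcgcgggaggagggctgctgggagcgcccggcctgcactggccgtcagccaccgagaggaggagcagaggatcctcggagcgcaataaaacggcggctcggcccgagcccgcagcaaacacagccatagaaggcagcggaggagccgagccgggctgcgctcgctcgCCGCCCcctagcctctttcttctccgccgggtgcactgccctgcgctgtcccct
Timp3: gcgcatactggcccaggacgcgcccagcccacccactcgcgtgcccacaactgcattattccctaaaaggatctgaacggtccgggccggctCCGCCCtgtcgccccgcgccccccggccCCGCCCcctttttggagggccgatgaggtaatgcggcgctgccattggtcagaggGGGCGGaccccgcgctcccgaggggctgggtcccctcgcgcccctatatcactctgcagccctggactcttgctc
Motifs were searched on both strands, and their letters were chosen with the sequences in view. The AP-1 element was searched as TGANTCA. A variant of it was searched as TGAGTAA. The letters of the GC box were GGGCGG. Those of the TATA box were TATAAA. The Timp1 window held the variant element, 108 bases before the start, and a GC box, the Timp2 window held 1 GC box and the Timp3 window held 3. Among 33469 windows of this length, 2.38% held the variant element, 30.5% a GC box, 6.34% the AP-1 element and 12.9% a TATA box. The AP-1 and TATA letters were not found in these 3 windows. The Timp1 window lies within the RefSeq span of its own gene, so the listed start is not the first base of that span. GC content was 61.2% for Timp1, 72.0% for Timp2 and 69.6% for Timp3. In the same RefSeq assembly Timp1 lies inside Syn1, Timp3 lies inside Syn3, and Cep295nl lies inside Timp2. The strand setting used in counting was not stated, so reads of these overlapping genes may not have been kept apart.

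The first question was whether gelatinase transcripts differed between SCI and control bladders of the same week. Mmp2 was present in every library, from 180.1 to 502 CPM around a median of 305 CPM, and no comparison of Mmp2 passed the test when all libraries were fitted. At 2 weeks Mmp2 was 313, 303 and 421 CPM in controls and 275, 468 and 253 CPM after SCI. The groups overlapped, and the highest 2-week value was the SCI library labelled replicate 2. At 8 weeks it was 365, 389.5 and 261 CPM in controls and 217, 303 and 295 CPM after SCI, again with overlap. At 16 weeks it was 321, 305 and 431 CPM in controls and 295, 219.6 and 180.1 CPM after SCI, and every SCI value lay below every control value. The log2 fold change of Mmp2 in weeks 2, 8 and 16 was -0.056, -0.32 and -0.61 (SE 0.25 each). The edgeR adjusted p was 0.997, 0.433 and 0.133 in that order. At 16 weeks the 95% interval ran from 0.457-fold to 0.944-fold, and at 2 weeks from 0.67-fold to 1.38-fold.

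Mmp9 was at the limit of detection in these bladders. Its raw counts per library lay between 0 and 5, and 10 of 21 libraries had 0 counts. The 2-week controls had 0, 0 and 0 counts and the 2-week SCI libraries 0, 2 and 2. The 8-week controls had 2, 3 and 0 counts and the 8-week SCI libraries 1, 5 and 1. The 16-week controls had 3, 0 and 0 counts and the 16-week SCI libraries 0, 1 and 0, while the 0-week controls had 1, 0 and 2. Pooled over weeks, the 9 SCI libraries held 12 counts, or 0.144 CPM of the raw totals (95% exact Poisson interval 0.0744 to 0.252), and the 9 controls of the same weeks held 8, or 0.0825 CPM (0.0356 to 0.163). The intervals overlap and cover counting error only. The 0 counts of the 2-week controls allow a level of up to 0.0903 CPM by the limit of 3 counts of the group's total, and the upper end of the two-sided 95% exact Poisson interval is 0.111 CPM. When the count filter was left out, edgeR's adjusted p for Mmp9 was 0.948, 1 and 0.824 at 2, 8 and 16 weeks, and no difference was detectable at this depth. MMP9 is best known as a granule enzyme of neutrophils and a product of activated macrophages and epithelium.

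**Figure D1:**
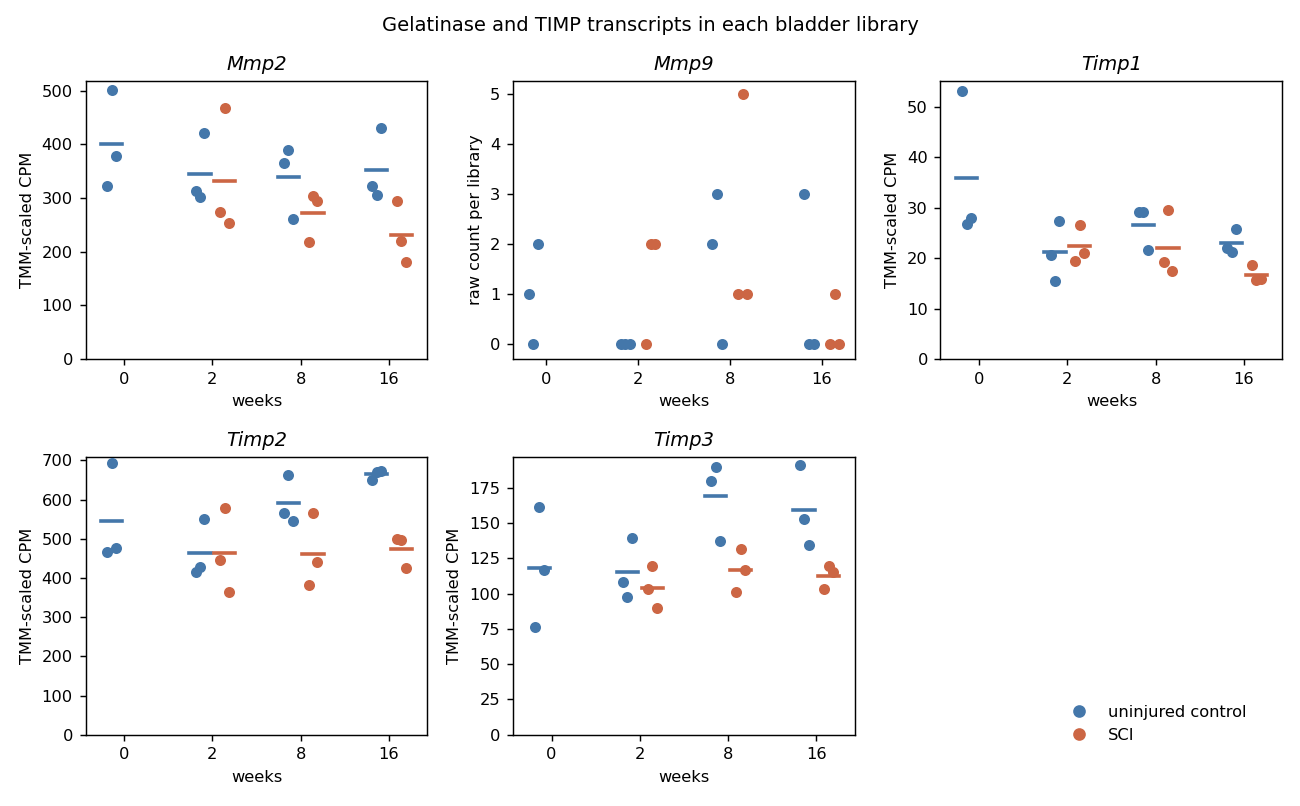
Levels of the 5 transcripts in each library by week (x axis, weeks), as TMM-scaled CPM for Mmp2, Timp1, Timp2 and Timp3 and as raw counts for Mmp9. Points are libraries, 3 per group, and short lines are group means. At 16 weeks all SCI points of Mmp2, Timp1, Timp2 and Timp3 lie below all control points, as for 18.3% of all tested genes. Mmp9 stays between 0 and 5 counts.

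The next question was whether the inhibitors moved with injury. For Timp1, the inducible inhibitor of the family, no comparison of SCI with control passed the test when all libraries were fitted, and the fitted change was at most 1.06-fold in the upward direction. At 2 weeks it was 20.5, 15.4 and 27.4 CPM in controls and 19.5, 26.6 and 20.9 CPM after SCI. At 8 weeks it was 29.2, 29.1 and 21.6 CPM in controls and 19.1, 29.6 and 17.4 CPM after SCI, so that groups overlapped at both weeks. At 16 weeks it was 22.1, 21.2 and 25.8 CPM in controls and 18.6, 15.6 and 15.9 CPM after SCI, with no overlap. Counts behind these values lay between 138 and 333 per library from 2 weeks on. The log2 fold change in weeks 2, 8 and 16 was 0.088, -0.28 and -0.46 (SE 0.26 each), with edgeR adjusted p of 0.995, 0.52 and 0.272. With only the 16-week groups in the fit, the edgeR adjusted p of Timp1 was 0.0453 (log2 fold change -0.45), where 14.6% of all genes were called, and without the 0-week controls it was 0.171. The upper end of the 95% interval was 1.55-fold at 2 weeks, 1.21-fold at 8 weeks and 1.07-fold at 16 weeks.

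Timp2 showed tight controls at 16 weeks and lower SCI values beside them. Timp2 is the broadly expressed member that bridges pro-MMP2 to its activator. At 16 weeks it was 651, 671 and 674 CPM in controls, 665 ± 12.1 CPM (SD, n = 3), and 499.6, 498 and 426 CPM after SCI, 474 ± 42.1 CPM (SD, n = 3). The 16-week SCI values lay wholly below the controls. At 8 weeks it was 566, 662 and 545 CPM in controls and 382, 566 and 439.7 CPM after SCI, where SCI 8 weeks replicate 2 alone reached the range of the controls. At 2 weeks it was 416, 428 and 551 CPM in controls and 446, 579 and 365 CPM after SCI, with overlap. The log2 fold change in weeks 2, 8 and 16 was -0.0048, -0.35 and -0.49 (SE 0.18 each), with edgeR adjusted p of 0.998, 0.211 and 0.102. At 16 weeks the 95% interval ran from 0.548-fold to 0.929-fold, and the edgeR adjusted p was 0.0152 when only the 16-week groups were fitted (14.6% of all genes called) and 0.0602 without the 0-week controls.

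Timp3 was the member whose SCI libraries lay below the controls at both 8 and 16 weeks in TMM-scaled CPM. Of all tested genes, 14.7% lay wholly lower at 8 weeks and 18.3% at 16 weeks, and the share at both weeks was not computed. It encodes the inhibitor that is retained in the matrix. At 8 weeks Timp3 was 179.6, 189 and 138 CPM in controls and 101, 132 and 117 CPM after SCI, with no overlap. At 16 weeks it was 191, 153 and 135 CPM in controls and 103, 119.8 and 115 CPM after SCI, again with no overlap. At 2 weeks it was 108, 97.3 and 139 CPM in controls and 104, 119.7 and 89.6 CPM after SCI, and the groups overlapped. The log2 fold change in weeks 2, 8 and 16 was -0.14, -0.53 and -0.50 (SE 0.21 each). The edgeR adjusted p was 0.978, 0.114 and 0.144 in that order, so that no single week passed the test with all 21 libraries. Without the 0-week controls the edgeR adjusted p of Timp3 was 0.038 at 8 weeks, which passed (16.3% of all genes called), and 0.0547 at 16 weeks, which did not (13.8%). With only the groups of the week it was 0.0996 at 8 weeks, which did not pass, and 0.0419 at 16 weeks, which did (14.6% of all genes called).

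Set against all genes, 0 of the 4 tested members was called by edgeR in week 2, 8 or 16, and DESeq2 called 0 of them as well. Calls over all tested genes made up 0% in week 2 (0 genes by edgeR, 1016 or 6.67% at an unadjusted p under 0.05, and 64 by DESeq2), 8.41% in week 8 and 5.62% in week 16 (12.9% and 11.0% by DESeq2). These were 782 lower and 499 higher genes in week 8 and 493 lower and 362 higher in week 16, and with library size alone the split was 653 lower and 2435 higher in week 8 and 292 lower and 478 higher in week 16. An unadjusted p under 0.05 was found for 1 member in week 8, Timp3, where 28% of all genes had one. In week 16 it was found for 3 members, Mmp2, Timp2 and Timp3, where 26.6% of all genes had one. Groups without overlap, lower after SCI, were found for 0 of 4 members in week 2 (8.43% of all tested genes), for 1 of 4 in week 8 (14.7%) and for 4 of 4 in week 16 (18.3%). These counts and shares rest on TMM-scaled CPM. By library totals alone Timp3 overlapped at 8 weeks, with 1209 of 9204566 counts in SCI replicate 2 and 1223 of 9487928 in control replicate 3. Mmp2 then overlapped at 16 weeks, with 2517 of 8087726 counts in SCI replicate 1 and 2970 of 10464756 in control replicate 2. The median log2 fold change of the 4 members over weeks 2, 8 and 16 was -0.031, -0.33 and -0.49, and that of all tested genes was 0.0017, 0.0032 and -0.017. Of all tested genes, 10.9% had a lower log2 fold change than Mmp2 in week 16, and 12.4% had a lower one than Timp3 in week 8.

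**Figure D2:**
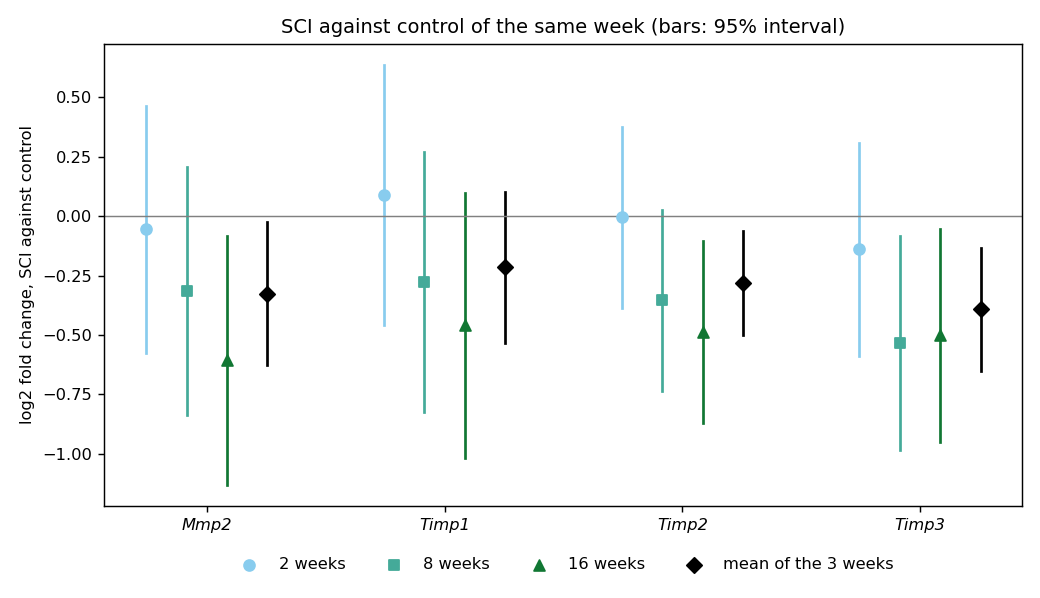
Log2 fold change of SCI against control (y axis) for Mmp2, Timp1, Timp2 and Timp3, at 2, 8 and 16 weeks and as the mean of the 3 weeks, with 95% intervals from edgeR's quasi-likelihood fit. The 2-week values lie close to 0 (-0.14 to 0.088) and the 16-week values between -0.61 and -0.46.

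Averaging the SCI effect over the 3 weeks gave 1 called member, Timp3, which was 0.762-fold of control (log2 fold change -0.39 with an SE of 0.12, edgeR adjusted p = 0.03, 95% interval 0.637-fold to 0.912-fold). In this comparison 22.7% of all tested genes were called, 12.3% lower and 10.4% higher, or 1876 and 1578 genes. With library size alone as the scaling the split over all genes was 1272 lower and 3652 higher. Timp2 stood next to the threshold (0.822-fold of control, adjusted p = 0.0594), followed by Mmp2 (0.798-fold, adjusted p = 0.105) and Timp1 (0.861-fold, adjusted p = 0.312), all by edgeR. Their log2 fold changes were -0.28 (SE 0.10), -0.33 (SE 0.14) and -0.22 (SE 0.15). The Timp3 call depended on single animals and was lost in 7 of the 21 fits that left out 1 library. Among controls these were replicate 3 of week 2 (edgeR adjusted p = 0.0695 when left out), replicates 1 and 2 of week 8 (0.0502 and 0.0608) and replicate 1 of week 16 (0.0664). Among SCI animals they were replicate 3 of week 2 (edgeR adjusted p = 0.0654 when left out), replicate 1 of week 8 (0.0653) and replicate 1 of week 16 (0.0577). In these 7 fits the log2 fold change of Timp3 lay between -0.37 and -0.34, and 15.8% to 21.6% of all genes were called, against 17.1% to 28.2% in the 14 fits that kept the call. Timp2 passed the threshold in 4 of the 21 fits, those that left out replicate 1 or 2 of the 0-week controls (edgeR adjusted p = 0.0489 and 0.0331), SCI replicate 2 of week 2 (0.0201) or SCI replicate 2 of week 8 (0.0193), and in these fits 26.7%, 26.3%, 23% and 28.2% of all genes were called. Mmp2 passed it in 1, the fit that left out SCI replicate 2 of week 2 (edgeR adjusted p = 0.023). With library size alone as the scaling, the median of all genes moved to 0.10 in this comparison and to 0.19 at 8 weeks, and Timp3 was -0.29 (edgeR adjusted p = 0.0513), or -0.39 relative to that median.

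**Figure D3:**
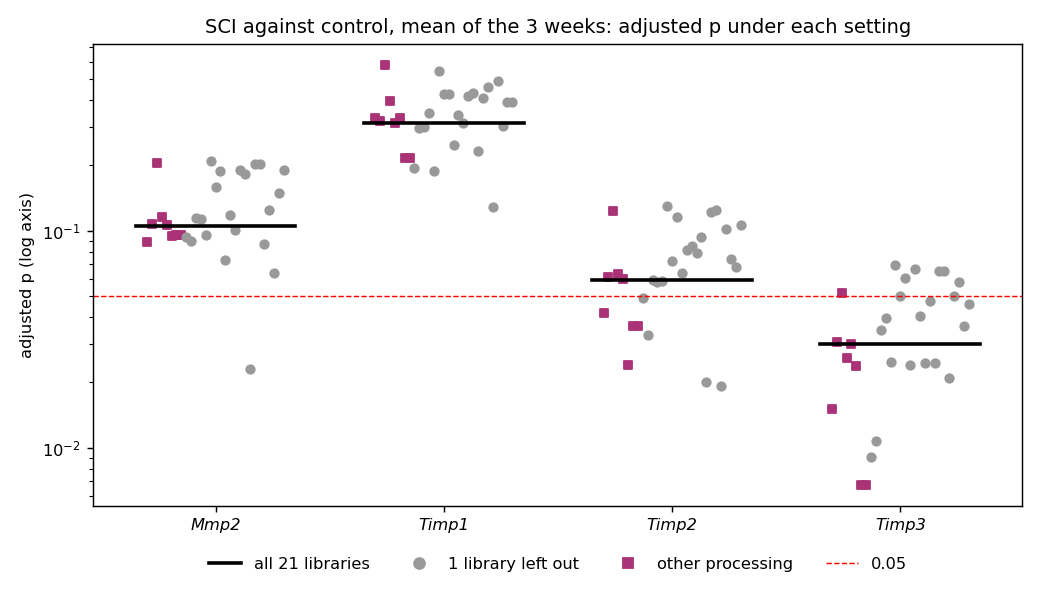
Adjusted p (y axis, log scale) for SCI against control averaged over the 3 weeks, for Mmp2, Timp1, Timp2 and Timp3. Black lines are the fit of all 21 libraries, grey points the 21 fits with 1 library left out, squares other processing, and the dashed line the threshold of 0.05; Timp3 lies on both sides of it, from 0.00675 to 0.0695.

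Whether the SCI effect itself differed between weeks was tested as an interaction. For 8 against 2 weeks edgeR called 0 of the 4 members, and 0.0197% of all genes (3 genes) were called, with 8.59% at an unadjusted p under 0.05 and 28 genes by DESeq2. For 16 against 2 weeks it also called 0 members, as DESeq2 did for both interactions, and 0% of all genes were called (1180 genes or 7.75% at an unadjusted p under 0.05, and 6 by DESeq2). For 16 against 2 weeks the difference in log2 fold change was -0.55 (SE 0.35) for Mmp2, -0.55 (SE 0.37) for Timp1, -0.48 (SE 0.26) for Timp2 and -0.36 (SE 0.30) for Timp3, with edgeR adjusted p from 0.658 to 0.737. All 4 values were negative, as were the 4 for 8 against 2 weeks, which lay between -0.39 and -0.26 with edgeR adjusted p from 0.698 to 0.847. Of all tested genes, 51.7% had a negative value for 16 against 2 weeks and 49.6% for 8 against 2 weeks. Without SCI replicate 2 of week 2 the 8 against 2 week difference was 0.072 for Mmp2 and -0.16 for Timp2, and without control replicate 2 of week 2 it was -0.18 for Timp1. Without SCI replicate 2 of week 2 the 16 against 2 week difference was -0.22 for Mmp2 and -0.29 for Timp2, and without control replicate 1 of week 16 it was -0.21 for Timp3. Both interactions share the 2-week libraries.

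Change over time was then followed in each arm. In controls Timp3 was 115 ± 21.7 CPM at 2 weeks, 169 ± 27.6 CPM at 8 weeks and 159.6 ± 28.9 CPM at 16 weeks (SD, n = 3 each). In SCI bladders it was 104 ± 15.1, 117 ± 15.5 and 113 ± 8.61 CPM (SD, n = 3 each). Timp2 in controls was 546 ± 128 CPM at 0 weeks and 465 ± 75.0, 591 ± 62.2 and 665 ± 12.1 CPM at 2, 8 and 16 weeks (SD, n = 3 each), whereas SCI means stayed between 462 and 474 CPM. None of these steps passed the test. For Timp3 the control step from 2 to 8 weeks was 1.47-fold (log2 0.56 with an SE of 0.21, edgeR adjusted p = 0.191), and the highest 2-week library, at 139 CPM, overlapped the lowest 8-week library, at 138 CPM. For Timp2 the same step was 1.27-fold (log2 0.35 with an SE of 0.18, edgeR adjusted p = 0.308). In controls, 0% of all genes were called by edgeR from 2 to 8 weeks (2881 genes or 18.9% at an unadjusted p under 0.05, and 269 by DESeq2). Leaving out 1 library gave 0 to 101 edgeR calls for this step, the most without 0-week replicate 2, and edgeR called 211 genes without all 0-week controls and 453 with only the groups compared. From 8 to 16 weeks 0.0788% were called in controls (12 genes, 0 without control replicate 1 of week 8 or replicate 3 of week 16, 129 without control replicate 2 of week 16, and 105 by DESeq2). In SCI bladders 0.0131% were called from 2 to 8 weeks (2 genes, 0 to 9 with 1 library left out, the fewest without SCI replicate 3 of week 8 and the most without SCI replicate 3 of week 2, 684 genes at an unadjusted p under 0.05, and 22 by DESeq2) and 0% from 8 to 16 weeks (275 genes or 1.81% at an unadjusted p under 0.05, and 1 by DESeq2).

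No step of Mmp2 or Timp1 between neighbouring weeks passed the test in either arm. Mmp2 means in controls were 401, 346, 338 and 352 CPM at 0, 2, 8 and 16 weeks, with SDs from 65.5 to 91.9 CPM (n = 3 each). In SCI bladders they were 332, 272 and 231 CPM at 2, 8 and 16 weeks, with SDs from 47.5 to 118 CPM (n = 3 each). The SCI steps of Mmp2 had log2 fold changes of -0.29 and -0.23 with edgeR adjusted p of at least 0.999931. Among the 4 tested members, the largest difference between neighbouring weeks in either arm was Timp1 in controls from 0 to 2 weeks, at -0.78 on the log2 scale (SE 0.26, edgeR adjusted p = 0.266), and it depended on 1 animal. In that comparison 0% of all genes were called by edgeR (2044 or 13.4% at an unadjusted p under 0.05, 82 by edgeR without 0-week replicate 3, and 45 by DESeq2). Timp1 was 53.2, 26.7 and 28.0 CPM in the 0-week controls, where replicate 1 stood far above the other two and held the highest Timp1 value of the series. Without it the log2 fold change was -0.37 (edgeR adjusted p = 0.619). The same library had the lowest Timp3 level of all 21, 76.5 CPM, against 161 and 117 CPM in the other two.

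Ratios of counts within a library do not depend on the scaling between libraries, and they were used to describe the balance of enzyme and inhibitor. SCI and control libraries of the same week overlapped in the ratio of Mmp2 to Timp2, and its mean was lower at 8 and 16 than at 2 weeks in both arms. The log2 ratio of Mmp2 to Timp2 counts was -0.45 ± 0.099 in controls at 0 weeks, -0.43 ± 0.059 at 2 weeks, -0.82 ± 0.22 at 8 weeks and -0.93 ± 0.26 at 16 weeks (SD, n = 3 each). After SCI it was -0.51 ± 0.20, -0.76 ± 0.17 and -1.06 ± 0.26 at 2, 8 and 16 weeks (SD, n = 3 each). The SCI mean minus the control mean was -0.078, 0.058 and -0.13. The 8-week controls lay wholly below the 2-week controls, and 7.22% of 15036 genes gave such a shift when used as the denominator of Mmp2 in the same way. These ratios are a description, with no test.

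For Mmp2 over Timp1 the SCI and control libraries overlapped at each week, with mean log2 ratios from 3.65 to 3.85 after SCI and from 3.66 to 4.06 in controls of the same weeks. In controls it was lower at 8 than at 2 weeks with no overlap (3.66 against 4.06), as Mmp2 was over 7.22% of genes, and higher at 16 than at 8 weeks with no overlap (3.92 against 3.66), as Mmp2 was over 3.33% of genes. For Timp1 over Timp2 they overlapped as well. The Timp1 to Timp2 ratio was lower at 16 than at 8 weeks with no overlap in both arms, -4.86 against -4.48 in controls and -4.83 against -4.41 after SCI, where 8.11% and 16.3% of genes used as the denominator of Timp1 gave such a shift. For Mmp2 over Timp3, a ratio added after the values had been seen, the log2 mean was 1.59 at 2 weeks and 0.99 at 8 weeks in controls, and 1.63 and 1.21 after SCI, with no overlap between these weeks in either arm (7.22% and 6.7% of genes). It was also lower in controls at 2 than at 0 weeks with no overlap (1.59 against 1.80, 8.08% of genes). The 2 groups nearly touched, since the highest 2-week value was 1.636 and the lowest 0-week value 1.639. At 8 weeks this ratio was higher after SCI with no overlap (1.10 to 1.33 against 0.92 to 1.04), as it was for 3.54% of genes. A ratio of Mmp9 to Timp1 was not formed, because 6 of the 7 groups held libraries with 0 Mmp9 counts.

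**Figure D4:**
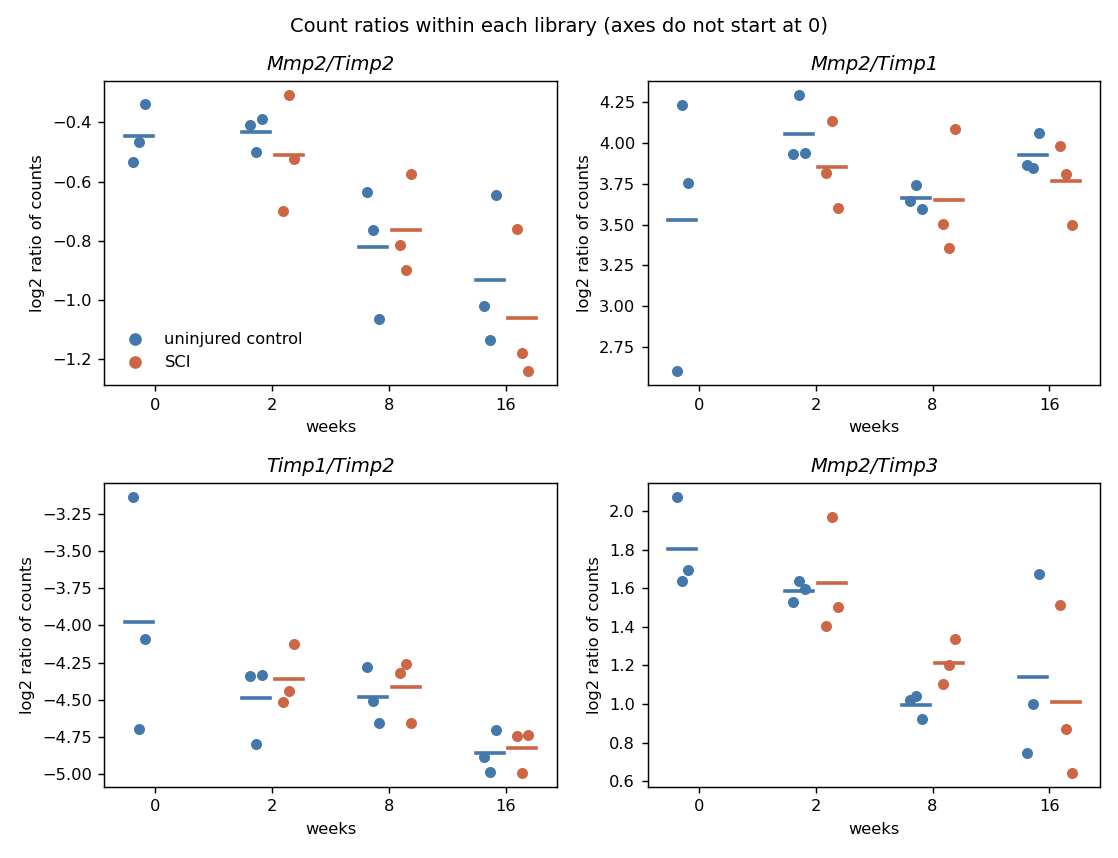
Log2 ratios of raw counts within each library (y axes, which do not start at 0) by week (x axes) for Mmp2 over Timp2, Mmp2 over Timp1, Timp1 over Timp2 and Mmp2 over Timp3. Points are libraries and lines group means; the control mean of Mmp2 over Timp2 is -0.43 at 2 weeks and -0.93 at 16 weeks, and SCI and control points of Mmp2 over Timp2 overlap at each week, whereas those of Mmp2 over Timp3 do not at 8 weeks.

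Libraries of a group could differ in the same direction for all tested members. One library was the highest of its group for all 4 tested members in 3 of the 7 groups, namely control 2 weeks replicate 3, SCI 2 weeks replicate 2 and SCI 8 weeks replicate 2. Control 8 weeks replicate 3 was the lowest of its group for all 4. The 3 highest libraries also had the lowest TMM factor of their groups, 0.997, 1.01 and 0.996 in that order. Control 8 weeks replicate 3 had the highest factor of its group, 0.938. The part of scaling was not tested, and the share of all genes with such an order was not computed. Over the 21 libraries, the pattern of log2 CPM most like that of Timp3 among the members was that of Timp2 (Pearson r = 0.80), which ranked 279 of 13302 genes in likeness to Timp3, where the closest gene reached r = 0.93. Mmp2 was closest to Timp2 among the members (r = 0.65, rank 352), and Timp1 to Mmp2 (r = 0.57, rank 495). Timp1 and Timp3 had r = 0.08. These values mix differences between groups with variation shared by libraries, so they are given as a description with no p. The biological coefficient of variation of the fit was 0.214 for Mmp2, 0.217 for Timp1, 0.16 for Timp2 and 0.185 for Timp3, against a common value of 0.16.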

How the data were processed

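RNA of 21 rat bladders was sequenced from stranded, ribosomal RNA-depleted libraries, and counts of both flow cells were summed by the authors. Raw counts per Ensembl gene were deposited. The submitters' processing notes name STAR 2.7.10a, featureCounts 2.0.3, Trim Galore 0.6.10, SAMtools 1.17 and the build Rnor_6.0. The annotation release and strand setting are not given in the sources used here.

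Groups came from sample titles and columns were matched by name. Genes were filtered with filterByExpr of edgeR (version 4.0.16, R 4.3.3), which kept 15225, scaled by TMM (factors 0.903 to 1.09) and fitted as 7 group means with 14 residual degrees of freedom. The quasi-likelihood F test was used, with Benjamini-Hochberg adjustment over all genes tested. Standard errors and 95% intervals were computed from unshrunken coefficients and F. At these depths 1 CPM rests on about 8 to 15 counts. Replicate pairs within groups differed by more than sampling noise (chi-square divided by its degrees of freedom, 7.22 to 59.9). On data simulated for the 8-week comparison (15002 genes), 180 of 200 genes changed 4-fold were recovered, with 7 false calls. The SCI differences of the tested members were all smaller than that, with no log2 fold change below -0.61. Recovery of changes of that size was not tested. The members, gene lists and tests were chosen with earlier results of these data known. The rule for named genes was to give the 5 members always and other pathway genes and cell type markers only where a table paired identifiers with symbols, which none did. Alternatives were DESeq2 (version 1.42.0), RLE factors, library size alone, no filter, CPM above 1 in at least 3 libraries, only the groups compared, a block for the replicate number, no 0-week controls, and leaving out each library.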

Additional observations from a re-analysis of the deposited data

How the results depend on the processing

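Of 1272 results recomputed under the alternatives, 1216 kept their direction and their side of the threshold. The 35 that turned in sign all concerned differences that had not passed the test, and where no value shows a cause, the cause was not tested. Averaged over the 3 weeks, Timp2 passed the threshold with DESeq2 (-0.28, adjusted p = 0.0417, 25.7% of all genes called), with only the groups compared or without the 0-week controls (-0.28, edgeR adjusted p = 0.0364, 29.0%) and with the replicate block (-0.29, edgeR adjusted p = 0.0239, 24.9%). Timp3 missed it with library size alone (-0.29). At 16 weeks the fit of only those groups gave calls for Timp1 (-0.45, edgeR adjusted p = 0.0453), Timp2 (-0.48) and Timp3 (-0.49, edgeR adjusted p = 0.0419), where 14.6% of all genes were called, and the fit without the 0-week controls called none of the 3 (edgeR adjusted p = 0.171, 0.0602 and 0.0547). Without the 0-week controls Timp3 passed at 8 weeks (-0.53), and with only the 8-week groups it did not (edgeR adjusted p = 0.0996). With library size alone Timp2 was 0.022 at 2 weeks and 0.020 for SCI at 8 against 2 weeks, and Timp3 was 0.043 in controls at 2 against 0 weeks. Without the count filter Timp2 was 0.0041 for SCI at 8 against 2 weeks. Mmp9 entered only that fit.

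Leaving out 1 library at a time gave these ranges of log2 fold change. At 2 weeks they were -0.39 to 0.11 for Mmp2, -0.10 to 0.32 for Timp1, -0.20 to 0.14 for Timp2 and -0.25 to 0.020 for Timp3. At 8 weeks they were -0.47 to -0.17 for Mmp2, -0.54 to -0.13 for Timp1 and -0.52 to -0.23 for Timp2, nearest 0 without SCI replicate 1 (Mmp2, Timp2) or 3 (Timp1). For the mean of the weeks they were -0.44 to -0.27 for Mmp2, -0.30 to -0.14 for Timp1 (the latter without control replicate 3 of week 2), -0.35 to -0.23 for Timp2 and -0.43 to -0.34 for Timp3. For the interaction of 8 with 2 weeks the ranges were -0.43 to 0.072 for Mmp2, -0.63 to -0.18 for Timp1 and -0.52 to -0.16 for Timp2. For that of 16 with 2 weeks they were -0.76 to -0.22 for Mmp2, -0.63 to -0.29 for Timp2 and -0.52 to -0.21 for Timp3. In controls at 2 against 0 weeks Timp3 ranged from -0.26 to 0.25. In controls at 8 against 2 weeks Mmp2 ranged from -0.15 to 0.14. In controls at 16 against 8 weeks the ranges were -0.23 to 0.031 for Timp3 and -0.11 to 0.17 for Mmp2. In SCI libraries at 8 against 2 weeks Mmp2 ranged from -0.45 to 0.037, Timp1 from -0.29 to 0.12 and Timp2 from -0.18 to 0.19, and at 16 against 8 weeks Mmp2 ranged from -0.45 to -0.082, Timp1 from -0.53 to -0.13, Timp2 from -0.077 to 0.20 and Timp3 from -0.14 to 0.046.

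No label ties samples with the same replicate number to each other. Deviations from group means correlated above 0.1 in 16 of 63 same-numbered pairs (mean r 0.025) and in 26 of 126 pairs with different numbers (mean r -0.012), and 10 of 21 libraries correlated best with their own number. The block moved the count of called genes at 16 weeks from 855 to 1307, and among the members it changed only the Timp2 call given above. Over all genes, the 1281 calls at 8 weeks became 322 with only those groups, 1960 with DESeq2, 2466 without the 0-week controls and 3088 with library size alone. They were 32 to 676 when an 8-week library other than SCI replicate 2 was left out, 2585 without SCI replicate 2 of week 8 and 2175 without 0-week replicate 2. The 855 calls at 16 weeks became 1675 with DESeq2, 2105 with only those groups and 2086 without the 0-week controls. They were 16 to 513 when a 16-week library was left out, 481 without SCI 2-week replicate 1, 516 without control 2-week replicate 1, 519 without SCI 8-week replicate 3, 1291 without SCI 8-week replicate 2, and 1547 and 1729 without 0-week replicates 1 and 2. Depth limits Mmp9 alone among the members.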
